A study of Homo sapiens with 2 samples.

Results

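The genes of homologous recombination and of the Fanconi anaemia pathway were examined in a map of JARID2 on chromatin. The 39 genes were taken by name, by a rule that uses no measured value but was set with earlier results of these data known, and every peak that the deposited list names for one of them was counted. Of the 39 genes, 31 had at least 1 peak, and these genes shared 97 of the 67071 peaks in the list. The cells were MDA-MB-231, a triple-negative human breast cancer line, untreated, and the study comprised 1 library of chromatin pulled down by a polyclonal JARID2 antibody and 1 input library with no antibody, both made with a transposase kit and PCR. Only the peak list of the JARID2 library was analysed here, so there is no replicate, no test between conditions is possible, and intervals cover counting error only. Tags (reads counted in a peak), fold enrichment (ChIP over the background set by the peak caller) and false discovery rate (FDR, in percent) are the authors' values for each peak on the hg19 build. The depth of the libraries is unknown.

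Homologous recombination copies the sister chromatid to mend a broken chromosome. The ends are cut back to single strands, BRCA1, PALB2 and BRCA2 prepare them for pairing with the sister, and nucleases or a BLM-containing complex separate the joined molecules. The Fanconi pathway senses DNA interstrand crosslinks: a multi-subunit ubiquitin ligase, with FANCL as its catalytic subunit, marks the FANCD2 and FANCI pair, after which the crosslink is cut out and the break is handed to recombination. Defects in these genes predispose to breast and ovarian cancer or cause Fanconi anaemia. JARID2 is an accessory subunit of PRC2, the complex that methylates histone H3 at lysine 27, and PRC2 is often found at promoters rich in CpG, a cytosine followed by a guanine.

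The promoters on which the results turn most are shown first. The 250 bases before the RefSeq start site (GRCh38.p14, a different build from the peaks) are given for XRCC2, FANCD2 and FANCL, which had the 3 lowest promoter FDRs of the 39 genes, and for ATM, whose promoter peak carries the name of its neighbour. Each is printed 5′ to 3′ on the strand of the gene, with CpG in capitals.
XRCC2 (chr7:152676142-152676391, minus strand): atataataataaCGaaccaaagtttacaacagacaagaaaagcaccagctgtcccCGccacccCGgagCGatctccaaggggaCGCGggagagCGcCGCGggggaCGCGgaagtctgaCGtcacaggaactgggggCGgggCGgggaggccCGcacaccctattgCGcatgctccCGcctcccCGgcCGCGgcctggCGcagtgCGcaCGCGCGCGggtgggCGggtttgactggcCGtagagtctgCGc
FANCD2 (chr3:10026187-10026436, plus strand): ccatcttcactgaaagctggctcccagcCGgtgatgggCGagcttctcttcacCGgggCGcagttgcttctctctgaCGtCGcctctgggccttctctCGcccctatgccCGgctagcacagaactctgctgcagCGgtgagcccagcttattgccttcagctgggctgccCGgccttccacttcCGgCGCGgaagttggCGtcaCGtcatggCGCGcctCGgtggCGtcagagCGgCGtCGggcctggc
FANCL (chr2:58241326-58241575, minus strand): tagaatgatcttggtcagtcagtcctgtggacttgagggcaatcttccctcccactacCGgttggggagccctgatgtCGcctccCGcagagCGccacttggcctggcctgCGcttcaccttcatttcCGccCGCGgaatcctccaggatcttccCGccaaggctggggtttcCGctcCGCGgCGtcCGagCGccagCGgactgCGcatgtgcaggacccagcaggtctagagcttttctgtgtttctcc
ATM (chr11:108222817-108223066, plus strand): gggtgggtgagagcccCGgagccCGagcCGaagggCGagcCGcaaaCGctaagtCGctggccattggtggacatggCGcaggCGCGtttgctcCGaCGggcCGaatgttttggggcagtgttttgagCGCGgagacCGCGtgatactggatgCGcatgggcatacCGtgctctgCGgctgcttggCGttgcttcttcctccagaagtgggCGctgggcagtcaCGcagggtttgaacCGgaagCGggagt
These stretches hold 29 CpGs for XRCC2, 22 for FANCD2, 17 for FANCL and 25 for ATM.

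Peaks sat at the start sites of 16 of the 39 genes. A peak overlapping an annotated transcription start site (TSS) was listed for 16 genes (41.0%, exact 95% interval 25.6 to 57.9), against 13.8% of the 20037 protein-coding genes of RefSeq. A promoter peak, which is any peak within 3 kb of a TSS, was listed for 20 genes (51.3%, 34.8 to 67.6), against 33.1% of all genes. Counting any peak, in introns, exons and intergenic sequence too, gave 31 genes (79.5%) against 56.3%. The part that gene length plays in this count was not tested. Most of the members' peaks were weak. With peaks of an FDR of at most 20% alone, 6 genes had a promoter peak (15.4%, 5.86 to 30.5) against 5.44%, and at an FDR of at most 5% XRCC2 was the 1 gene left (2.56%, 0.06 to 13.5) against 2.47%, a share near the background. The members' share was thus above that of all genes when weak peaks were counted and at an FDR of at most 20%, and close to it at 5%.

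**Figure D1:**
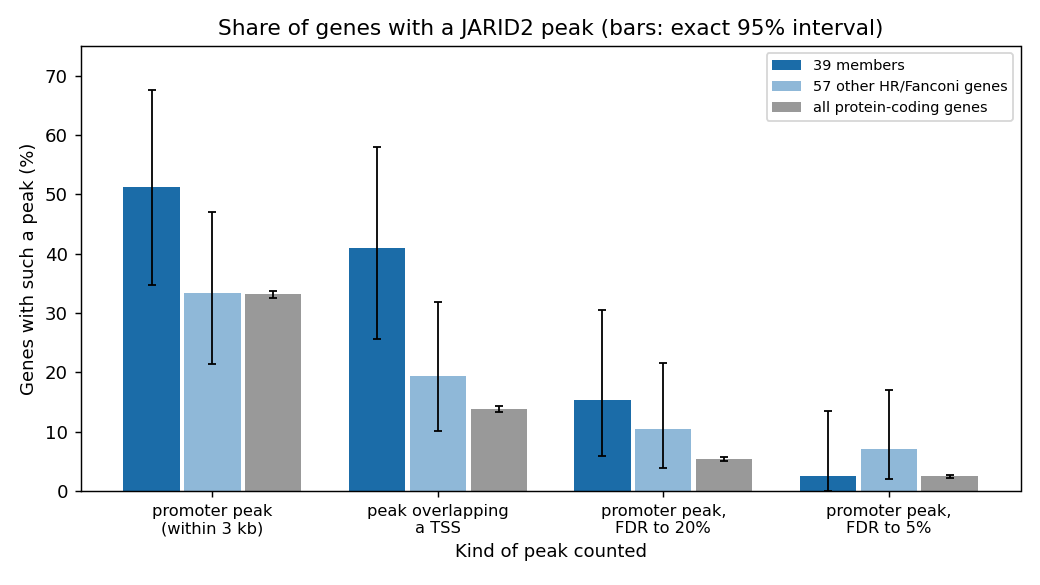
Percent of genes (y axis) with each kind of JARID2 peak (x axis), for the 39 members, 57 other recombination and Fanconi genes and all protein-coding genes; black bars are exact 95% intervals. The 39 members stand at 41.0% for peaks overlapping a TSS against 13.8% of all genes, and at 2.56% against 2.47% for promoter peaks with an FDR of at most 5%.

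Properties of the promoters and gene models moved with these shares. In the RefSeq table, 33 of the 39 genes had a promoter window (250 bases before to 50 after the start), with a median of 28 CpGs per gene against 24 over 15843 genes. Among genes with at least 20 CpGs in a window, 19.1% of all 9743 genes had a peak overlapping a TSS, and 11 of the 28 members did (39.3%). Among genes with fewer, it was 7.38% of all genes and 3 of the 5 members. The 39 genes also had more annotated transcripts, with a median of 8 against 4. For genes with 6 to 10 transcripts, 16.4% of all genes and 5 of 12 members had a peak overlapping a TSS, and for those with 11 or more, 18.5% and 7 of 15. Within the members, those with such a peak had a median of 24.5 CpGs and those without one 30. Of the members with the most CpGs, FANCC, with 41, and FANCA, with 37, had a peak. SLX4, with 44, GEN1, with 39, RAD51D, with 38, and RMI1, with 37, did not. The part that transcript number or CpG content plays in the share of the 39 genes was not tested.

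The summits of the start-site peaks lay close to the TSS. In the 20 peaks overlapping a TSS, which belong to the 16 genes, the summit was between 95 bp before and 272 bp after the TSS, with a median of 35 bp after it. A summit within 200 bp of the TSS was seen in 19 of these 20 peaks, against 57.2% of 2982 such peaks over all protein-coding genes. The summit of the PALB2 peak was 4 bp from the TSS and that of FANCD2 19 bp, and the 1 summit farther than 200 bp was that of BRIP1.

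In height, the promoter peaks of the members were not clearly apart from those of other genes. Taking the highest promoter peak of each gene, the median fold enrichment was 6.74 over 20 members (middle 50%, 5.86 to 7.92) and 6.18 over 6639 genes (5.3 to 7.06). For the highest peak overlapping a TSS the medians were 6.02 and 6.06, so the order depended on which peaks were taken. For the promoter peak with most tags per gene the members' median was 5.86, and no median over all genes was computed for that choice. The medians of the largest tag number were 24 and 17. All 20 values were at most 10.8, where the largest over all genes was 158.75.

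**Figure D2:**
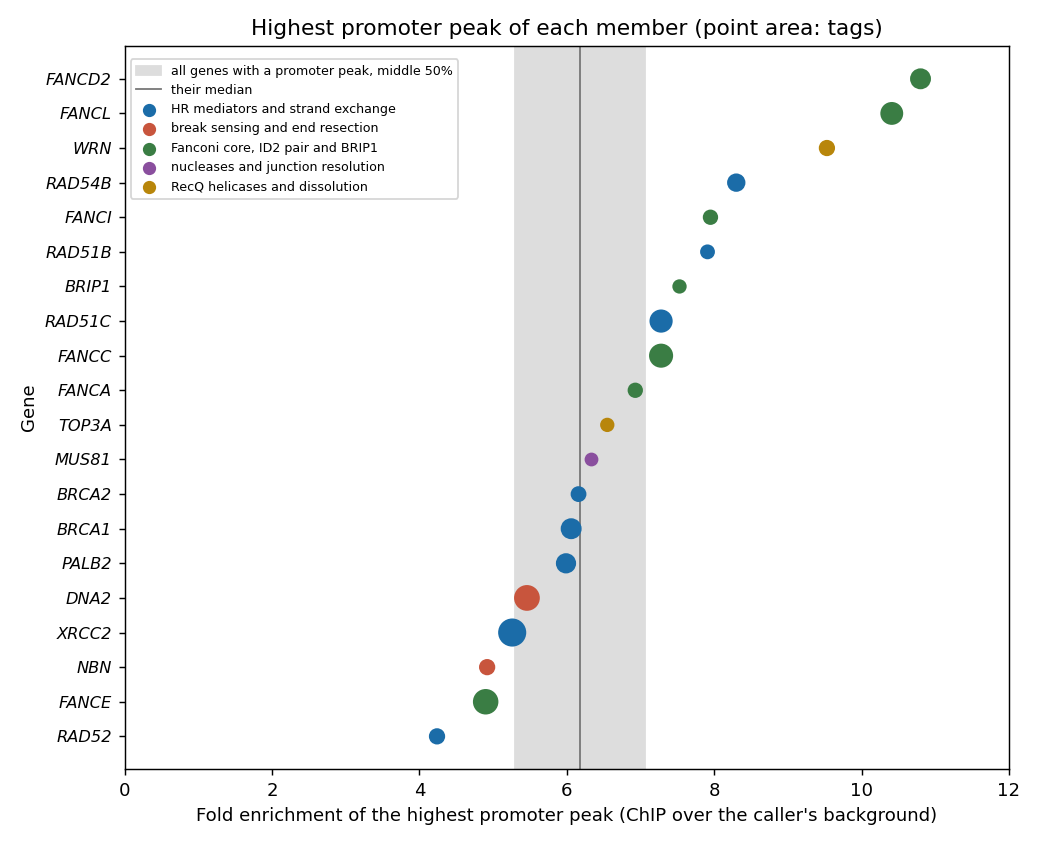
Fold enrichment (x axis, linear ratio) of the highest promoter peak of each of the 20 members that had one (y axis), coloured by role, with the point area in proportion to its tags; the grey band and line are the middle 50% and the median of all 6639 genes with a promoter peak. FANCD2 and FANCL lead at 10.8 and 10.41, and XRCC2 is low in fold but has the most tags, 53.

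The recombination mediators, which prepare and assist strand exchange, numbered 12 genes. Of these, 8 had a promoter peak (66.67%, exact interval 34.89 to 90.08), against 33.1% of all genes. A peak overlapping a TSS was listed for 7 (58.33%, 27.67 to 84.83), against 13.8%. XRCC2, a mediator of strand exchange, had the lowest FDR of all 97 peaks, 2.28%, at its start (chromosome 7, 152372501 to 152373802). This peak held 53 tags (95% Poisson interval 39.7 to 69.3) over 1302 bp, but its fold enrichment was 5.26, below the median of 5.95 over the whole list. XRCC2 thus ranked first by FDR while standing low by fold. RAD51C, which acts at the same stage, had 35 tags (24.4 to 48.7) and a fold of 7.28 with an FDR of 23.7% at its start (chromosome 17, 56769574 to 56770526). RAD54B, a DNA-dependent motor protein, had 21 tags, a fold of 8.3 and an FDR of 22.8% (chromosome 8, 95487021 to 95487638). Away from promoters, XRCC2 had 3 intergenic peaks of 4.85 to 6.9, and RAD54B had 3 intronic peaks and 1 intergenic peak of 4.94 to 6.37.

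The 3 central tumour suppressors of the mediator group had weak start-site peaks. BRCA1, the ubiquitin ligase subunit that favours resection, had 31 tags and a fold of 5.99 at its main start (chromosome 17, 41277031 to 41277960), with an FDR of 36.5%. PALB2, which bridges BRCA1 and BRCA2, had 26 tags and a fold of 5.99 (FDR 39.5%; chromosome 16, 23652267 to 23653004). BRCA2, a mediator of strand exchange, had a peak 148 bp after its start with 22 tags, a fold of 4.37 and an FDR of 46.5% (chromosome 13, 32889789 to 32890583). The BRCA1 and PALB2 start peaks were close to the median of 5.92 over all 13764 promoter peaks of the list, and that of BRCA2 was below it. RAD52, which anneals single strands, had the lowest fold of any member's highest promoter peak, 4.24 with 16 tags and an FDR of 43.7%. No peak was listed for XRCC3 or RAD54L, and BARD1, the partner of BRCA1, and RAD51D had 1 peak each outside promoters, at 5.3 and 5.6.

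BRCA2 carried stronger peaks inside the gene than at the start, while in BRCA1 the order depended on the measure. Inside BRCA1, 3 peaks stood in a row over 3689 bp (chromosome 17, 41243278 to 41246966), separated by gaps of 288 and 68 bp, and together held 94 tags (76.0 to 115.0). They are classed as promoter peaks because short internal transcripts start there, yet they lie 30.4 to 34.1 kb downstream of the main start. The list gives no exon or intron for peaks of the promoter class, so whether these 3 lie on BRCA1 exons was not determined. Their folds were 6.06, 3.86 and 4.55 and their FDRs 28.3%, 47.8% and 16.8%. Thus 2 of them had a lower FDR than the start peak of 36.5%. The start peak had a fold of 5.99, well above 3.86 and 4.55 and close to 6.06. Without these internal peaks BRCA1 would not be among the 6 genes with a promoter peak at an FDR of at most 20%. Inside BRCA2, the peaks were on exons. Exon 10 of 27 had 22 tags, a fold of 9.71 and an FDR of 5.98% (32906970 to 32907627), and exon 11 had 28 tags, 9.7 and 6.9% (32913444 to 32914393). A further exon 11 peak had 13 tags, 5.09 and 39.7%, and a last peak lay 68 bp before an internal start at a fold of 6.16. Of the 5 BRCA2 peaks, 0 were in introns. Both strong exon peaks were higher in fold than the start peak of the same gene, which stood at 4.37.

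Exons took a larger share of the members' peaks than of the list. Of the 97 peaks, 37 (38.1%) were in promoters, 41 (42.3%) in introns, 10 (10.3%) intergenic, 8 (8.25%) on exons and 1 in a 3′ UTR. Over the whole list, which also holds peaks named for genes that are not protein-coding, these shares were 20.5%, 37.2%, 36.6%, 2.23% and 1.52%. The part that the smaller intergenic share of the members plays in their other shares was not tested. Peaks of the promoter class are not counted on exons or introns. Of the 41 intronic peaks, 3 lie in introns that the list gives to another gene. They are named for RAD51D (fold 5.6), GEN1 (5.09) and FANCL (5.29). The 8 exon peaks were in BRCA2 (3), FANCL (2), ATM, FANCM and GEN1. They had a median fold of 6.8 (5.0 to 9.71), where the 1493 exon peaks of the list had a median of 5.91, and 2 of them, both in BRCA2, had an FDR of at most 20%. Of the 10 member peaks with an FDR of at most 20% (10.3%, against 4.15% of all peaks), 6 were promoter peaks, 2 were these exon peaks and 2 were intronic.

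**Figure D3:**
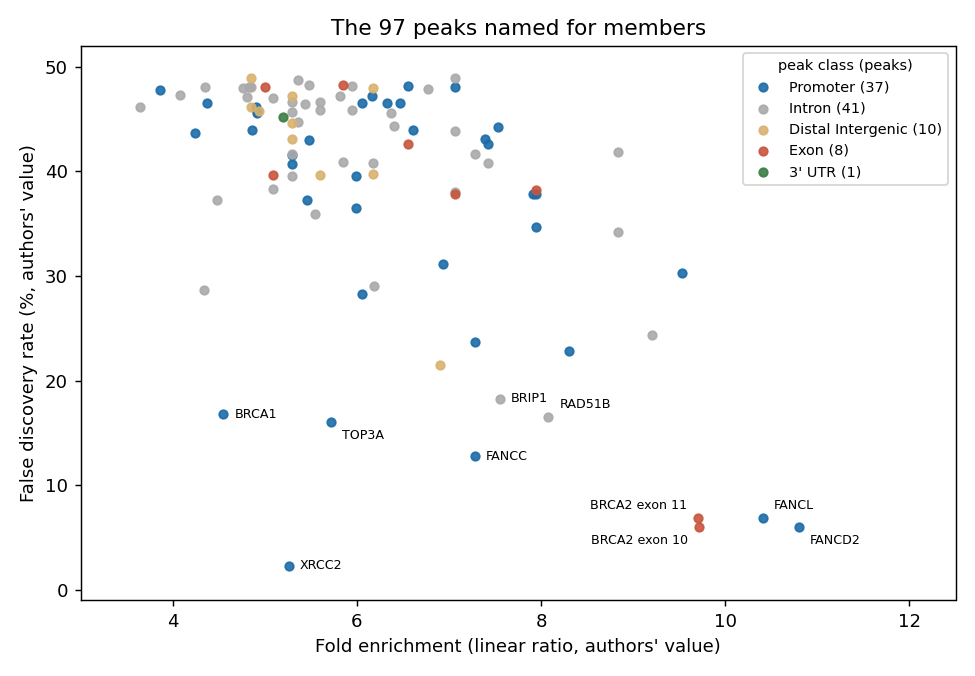
Fold enrichment (x axis) against FDR in percent (y axis) for the 97 peaks of the members, coloured by class, with the 10 peaks of an FDR of at most 20% named. XRCC2 is lowest in FDR at a fold of 5.26, FANCD2, FANCL and 2 BRCA2 exon peaks stand apart at folds of 9.7 to 10.8, and most other peaks lie above an FDR of 30%.

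The Fanconi group held the leading pair of promoter peaks by fold. Of its 10 genes, 7 had a promoter peak (70.0%, exact interval 34.75 to 93.33), against 33.1% of all genes. A peak overlapping a TSS was listed for 6 (60.0%, 26.24 to 87.84), against 13.8%. The median of the highest promoter folds was 7.53, the value of an internal BRIP1 peak, against 6.18 over all genes with a promoter peak. For peaks overlapping a TSS the medians were 6.1 and 6.06. FANCD2, the subunit that is ubiquitinated at crosslinks, reached 10.8 with 28 tags (18.6 to 40.5) and an FDR of 5.98% at its start (chromosome 3, 10067765 to 10068420). FANCL, the ligase that modifies it, reached 10.41 with 34 tags and an FDR of 6.89% (chromosome 2, 58468086 to 58468989). These were the highest promoter folds of the 39 genes, and they belong to a ligase and its substrate. FANCC, a core complex subunit, had 38 tags, 7.28 and an FDR of 12.8% (chromosome 9, 98079608 to 98080751), and intergenic peaks of 5.6 and 5.3. FANCI, the partner of FANCD2, had 1 peak at 7.95 with 14 tags and an FDR of 37.9%, 1520 bp after the start of a transcript of 7.6 kb. At the core subunit genes FANCA and FANCE the start peaks had folds of 4.86 and 4.9 and FDRs of 43.95% and 46.2%. The highest promoter peak of FANCA was 2487 bp after the start of a transcript of 1.0 kb, with 14 tags, a fold of 6.93 and an FDR of 31.2% (chromosome 16, 89855931 to 89856406). FANCF and FANCG had no peak, and FANCM, the translocase that anchors the complex, had 2 outside promoters at 6.55 and 5.44.

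BRIP1 and FANCL were dense in peaks along the gene. BRIP1, a helicase that binds BRCA1, had 14 peaks over its longest listed transcript of 176.8 kb, or 7.92 per 100 kb. The flanking 1 Mb on either side had 4.35 per 100 kb and chromosome 17 as a whole 2.78. FANCL had 8 peaks over 82.1 kb, or 9.75 per 100 kb, against 2.5 in the flanks and 2.17 on chromosome 2. Of 3061 genes in the list with a longest transcript of 50 to 300 kb, whose median was 2.68, 53 (1.73%) were as dense as BRIP1 and 16 (0.52%) as dense as FANCL. Most of these peaks were weak. In intron 3 of BRIP1, 5 peaks fell within 7953 bp with folds of 5.09 to 6.4 and FDRs of 29.1% to 47.2%, and the widest BRIP1 peak, 2077 bp in intron 14, had 54 tags and a fold of 4.34. The 1 BRIP1 peak with an FDR under 20% was in intron 6 (7.55, 18.3%). No peak overlapped the most upstream listed start of BRIP1, and its peak overlapping a TSS lay at a transcript of 17.3 kb that starts 67.9 kb downstream. The highest BRIP1 promoter peak, also internal, had 12 tags, a fold of 7.53 and an FDR of 44.2% (chromosome 17, 59854548 to 59855070).

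RAD51B, a mediator with a very long gene, had as many peaks as BRIP1 but at a lower density. Its 14 peaks included 5 of the promoter class, with folds of 5.3 to 7.91 (the highest with 13 tags and an FDR of 37.8%), and 9 in introns, with 3.64 to 8.08. A further 10 peaks that the list places in RAD51B introns or exons carry the names of other transcripts, with folds of 4.37 to 7.95. Its longest listed transcript, of 818.1 kb, starts downstream of 5 of the 14 named peaks. That span held 21 peaks of any name, or 2.57 per 100 kb, where chromosome 14 had 2.8. The strongest of the 14 named peaks was in intron 4 (8.08, FDR 16.6%), while the peak at the most upstream listed start had 12 tags and a fold of 7.42 (FDR 42.6%).

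**Figure D4:**
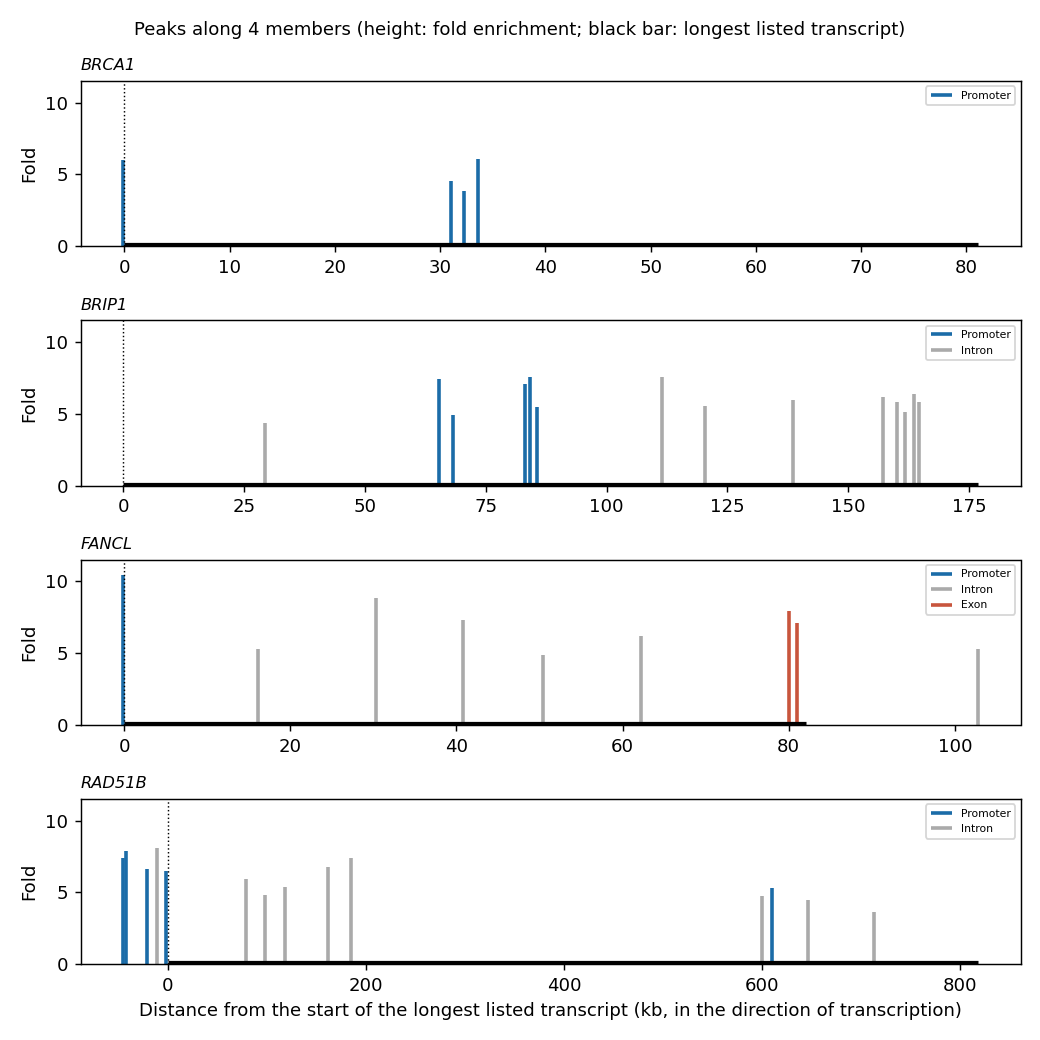
Fold enrichment (y axis) of each peak named for BRCA1, BRIP1, FANCL and RAD51B against distance in kb (x axis) from the start of the longest listed transcript, in the direction of transcription; colours give the class and the black bar the transcript. BRCA1 has 1 peak at the start and 3 at 30.4 to 34.1 kb, BRIP1 has none at the start, and FANCL has its highest peak, 10.41, there.

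Of the 7 genes for sensing and resecting breaks, 2 had a promoter peak (28.6%, exact interval 3.67 to 71.0), near the 33.1% of all genes. DNA2, a nuclease of long-range resection, had 44 tags (32.0 to 59.1) at its main start with a fold of 5.46 and an FDR of 37.3% (chromosome 10, 70231129 to 70232215), and NBN, a subunit of the MRE11 complex, had 16 tags 1495 bp before its start (4.92, FDR 45.6%). EXO1, an exonuclease, had its 1 peak in intron 11 at a fold of 9.2 and an FDR of 24.4%. RBBP8, which starts resection, and RAD50 had intronic peaks only, at 7.06 or less, and ATM, the kinase that signals breaks, had 1 intronic and 1 exonic peak of 4.08 and 5.0. No peak was named for MRE11A.

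At ATM and MRE11A a promoter peak was listed under the name of the neighbouring gene. Each peak in the list is given to 1 nearest transcript, and 16 of the 39 genes have a RefSeq neighbour that starts head to head with them within 1 kb. NPAT, a histone gene coactivator whose start is 429 bp from that of ATM, carried a peak over its TSS with 74 tags (58.1 to 92.9), a fold of 6.68 and an FDR of 5.72% (chromosome 11, 108092046 to 108094043). That peak is 1998 bp wide, has more tags than any of the 97 peaks named for the members, and has a lower FDR than any of them but the XRCC2 start peak. ANKRD49, 140 bp from MRE11A, had a peak 749 bp before its start with 14 tags, 5.72 and an FDR of 47.0%. With both added, 22 of the 39 genes (56.4%) had a promoter peak. Neighbours' peaks were not added for other genes, so the 33.1% of all genes is not a like share for this count. Of the 16 genes with such a neighbour 5 had a promoter peak under their own name, against 15 of the other 23, and the part that naming by the nearest transcript plays in this was not tested. The remaining neighbours, among them NBR2 and NBR1 (BRCA1), ZAR1L (BRCA2), DCTN5 (PALB2) and SMC6 (GEN1), had 0 promoter peaks of their own.

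The genes that take apart joined DNA were 5 nuclease and 5 dissolution genes, with promoter peaks at 1 and 2 of them. The exact intervals of these shares were 0.51 to 71.64% for the nuclease genes and 5.27 to 85.34% for the dissolution genes. Both include the 33.1% of all genes, so neither group was clearly apart from the background. Of the 5 nuclease genes, MUS81 alone had promoter peaks, 2 of them at 6.33 and 6.06 with FDRs of 46.6%, at a transcript of 1.8 kb. SLX4, the nuclease scaffold, ERCC4, which encodes XPF, and the resolvase gene GEN1 had peaks of 5.09 to 6.18 outside promoters, and EME1, the partner of MUS81, had none. In the dissolution group, TOP3A, the topoisomerase that works with BLM, had 25 tags, 5.72 and an FDR of 16.1% at its start (chromosome 17, 18217861 to 18218475). WRN, a RecQ helicase, had 16 tags and a fold of 9.53 (FDR 30.3%) starting 275 bp after its TSS (chromosome 8, 30891591 to 30892181), and intronic peaks of 4.83 and 7.06. BLM itself had 3 intronic peaks, the highest at 8.83 (FDR 34.2%), and 1 in a 3′ UTR, and RMI1 and RMI2, its accessory subunits, had no peak.

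Other repair genes gave a background for the share of start-site peaks. In a list of 57 such genes outside the 39, 19 (33.3%) had a promoter peak and 11 (19.3%, exact interval 10.1 to 31.9) a peak overlapping a TSS. The corresponding counts of TSS peaks were 3 of 15 end joining genes, 5 of 18 mismatch repair genes and 8 of 38 excision repair genes. All of these shares were between 19.3% and 27.8%, under the 41.0% of the 39 genes; the differences were not tested. With stricter limits the order changed. Promoter peaks with an FDR of at most 20% were listed for 16.7% of mismatch repair genes and 15.4% of the 39, and with an FDR of at most 5% for 16.7% of mismatch repair genes, 7.02% of the 57 genes and 2.56% of the 39. The 57 genes held stronger single peaks. BRME1, a meiotic recombination factor listed as C19orf57, had 63 tags and a fold of 20.86 with an FDR of 0 (chromosome 19, 14016611 to 14017326). MDC1, which gathers repair factors on damaged chromatin, had 3 start-site peaks of 14.13, 8.45 and 5.95 with FDRs of 0, 0 and 4.4%, the largest with 167 tags. FANCB, a core complex subunit, had 28 tags and 9.59 (FDR 4.57%), and ABRAXAS1, listed as FAM175A, had 45 tags and 8.4 (4.37%). FIGNL1, an ATPase of recombination, and RPA2, a subunit of the single-strand binding protein RPA, had 7.34 and 6.24 with FDRs of 14.3% and 18.0%.

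An E2F-type sequence was present in 3 of the 33 promoter windows, and all 3 of those genes had start-site peaks with an FDR of at most 20%. E2F proteins drive genes of the S phase, many repair genes among them, and E2F6 recruits a variant Polycomb complex. The letters TTTCCCGC, searched on both strands, occurred in the windows of 2.65% of the 15843 genes. The sites are shown as 30 bases on the strand of the gene, GRCh38.p14, with the match in capitals, which on the opposite strand reads GCGGGAAA.
XRCC2 (chr7:152676102-152676131, minus strand, bases 22 to 29 after the start): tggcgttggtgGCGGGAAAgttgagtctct
FANCD2 (chr3:10026424-10026453, plus strand, from 2 before the start to 6 after it): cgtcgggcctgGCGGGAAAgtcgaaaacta
FANCC (chr9:95317737-95317766, minus strand, 46 to 39 before the start): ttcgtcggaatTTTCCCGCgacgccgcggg
Of the 3 genes with the letters, 3 had a peak overlapping a TSS with an FDR of at most 20%, and of the 30 without them 2 did (FANCL and TOP3A). Over all genes with a window, 25.95% of the 420 with the letters had a peak overlapping a TSS (exact interval 21.8 to 30.4), against 14.25% of the 15423 without (13.7 to 14.8). Promoter peaks at an FDR of at most 20% were listed for 13.33% of the genes with the letters and 5.43% of those without. Among the members these were 3 of 3 and 3 of 30. At an FDR of at most 5% the shares over all genes were 6.67% and 2.5%. Among genes with at least 20 CpGs the TSS shares were 29.02% of 348 and 18.69% of 9395. These letters were 1 of 7 motifs searched, and a match is a description, not a bound site.

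Other motifs gave differences of a similar kind. Genes with the E-box CACGTG had TSS peaks in 380 of 1727 cases, against 13.65% of those without it, those with the Sp/KLF box GGGCGG in 17.4% against 9.5%, and those with the ETS letters CCGGAAG in 19.8% against 13.5%. For the second E2F form TTTGGCGC the shares were 21.5% and 14.5%, and none of the 33 members' windows held it. The NF-Y box CCAAT (14.45% and 14.64%) and the cell cycle element TTTGAA (13.66% and 14.73%) had shares whose intervals overlapped. In the members' windows, the ETS letters were in 12 of 33 genes (16.5% of all genes), GGGCGG in 23 (64.3%), CCAAT in 14 (42.1%), CACGTG in 3 (10.9%) and TTTGAA in 3 (15.8%).

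**Figure D5:**
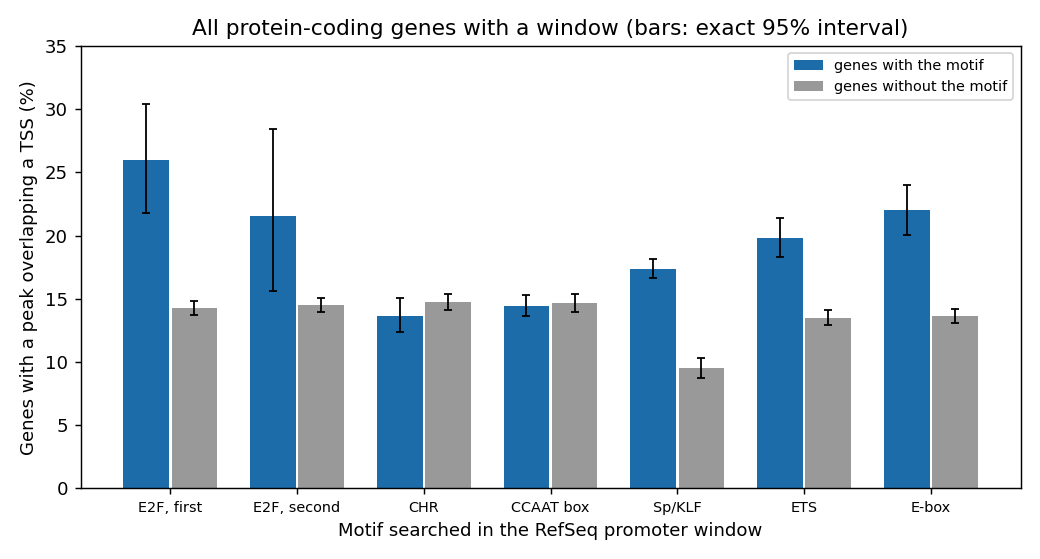
Percent of protein-coding genes with a peak overlapping a TSS (y axis) for genes with and without each of 7 motifs in the RefSeq promoter window (x axis); black bars are exact 95% intervals. The first E2F form, found in XRCC2, FANCD2 and FANCC, stands at 25.95% against 14.25%, and the CCAAT box at 14.45% against 14.64%.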

How the data were processed

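JARID2 ChIP-seq peaks of 1 library were used. The submitters' processing notes name the build hg19 and the tools bcl2fastq, Bowtie (version 0.12.8), MACS, MACS2 and ChIPseeker. Settings, thresholds and how the input entered the calling: not given in the sources used here. Per the file headers, each peak has a deposited count of tags (whole numbers), a fold enrichment (a linear ratio) and an FDR in percent. A further deposited score, whose header was unreadable, starts at 30. It was taken for a scaled negative log10 of p and was used in 1 alternative only. Distances are in base pairs as the authors deposited them, and the summit was read as an offset from the peak start.

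Symbols were matched to 20037 protein-coding RefSeq genes (GRCh38.p14), by symbol or by a synonym of 1 gene. That table was used for names and neighbours, and its promoter windows for sequence. Shares have exact Clopper-Pearson 95% intervals, which treat genes as independent draws. Tags have exact Poisson intervals. Both are from scipy 1.17.1. No test was run, because each group has 1 library and the genes are not replicates.

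The members, gene lists and motifs were chosen with earlier results of these data known. Named in full are the 10 members with the highest promoter fold, those with an FDR of at most 5% and those with a peak overlapping a TSS; further members are named where a count turns on them. Of the 57 other recombination and Fanconi genes, those with a promoter peak at an FDR of at most 20% are named, and of the head-to-head neighbours those with a peak. Alternatives changed the FDR, score and fold limits, the distance to the TSS, the naming of peaks and the peak taken for the height. Counting was tested on simulated peaks. Sequences of DNA2, FANCI, NBN, RAD54B, RMI2 and WRN were not used here.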

Additional observations from a re-analysis of the deposited data

How the results depend on the processing

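No paired analysis was possible because each group has 1 library. The count of genes with a promoter peak was 18 within 1 kb (46.2%, against 22.33% of all genes). It was 22 with the neighbours' peaks, which were not added for other genes. Both were near the 20 reported, and synonyms added none. The count fell to 6 at an FDR of at most 20%, to 10 at a score of at least 50 and to 10 in the top 25% by fold enrichment. Under these limits 5.44%, 9.89% and 11.2% of all genes remained. Any peak gave 9, 15 and 15 genes under the same limits, from 31, where 8.04%, 18.33% and 25.74% of all genes remained. Peaks overlapping a TSS were listed for 16 genes, for 18 within 500 bp, for 14 at the most upstream listed start alone (11.41% of all genes), for 15 within 1 kb of it, and for 5 at an FDR of at most 20%. These last 3 settings were chosen after seeing the data, and the 1 kb setting was added after the exact start had left out FANCC, whose start is 7 bp from the most upstream one. Listed starts are those of transcripts to which the list gives a peak, so an internal start can count as the most upstream. MUS81 was counted there, with its peaks at a transcript of 1.8 kb. The count at an FDR of at most 5% was 1, and became 0 at 1% and 3 at 10%, against 2.47%, 1.47% and 3.39% of all genes. The median height of 6.74 was 5.86 for the peak with most tags per gene and 6.11 within 1 kb, both without a median over all genes. The falls in counts under stricter limits follow from counting fewer peaks. Peaks of 9 to 54 tags limit every value here.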
